A study of Saccharomyces cerevisiae with 13 samples.

Results

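FET4 and 6 other genes for metal ion transporters of the yeast Saccharomyces cerevisiae were followed across 13 microarrays of furfural-fed cultures. The other 6 were SMF1, SMF2, SMF3, ZRT1, ZRT2 and CTR1. The members were chosen by gene name, and each had 1 probe set among those of the 5449 genes measured. Furfural is a growth-inhibiting aldehyde released from plant biomass. TMB3400-FT30-3, called FT30-3 below, was evolved from its parent TMB3400 to tolerate furfural, and the labels do not say whether it is 1 clone. FT30-3 was grown with 15 mM (n = 3), 25 mM (n = 2) or 36 mM (n = 3) furfural in the feed, and TMB3400 with 15 mM (n = 2) or 25 mM (n = 3). TMB3400 could not be kept in culture at 36 mM. All cultures were chemostats limited for glucose and kept at low oxygen, and none went without furfural. Bulk RNA was measured, so fewer cells expressing a gene and less RNA per cell cannot be told apart.

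Yeast takes up each metal through a high-affinity system that is switched on when the metal is scarce and through low-affinity carriers of broader range. Fet4 is a low-affinity carrier of ferrous iron in the plasma membrane that also moves copper and zinc. Its gene is known to respond to the iron factor Aft1, the zinc factor Zap1 and the hypoxic repressor Rox1. Smf1, Smf2 and Smf3 are the yeast members of the Nramp family. Smf1 acts at the cell surface and Smf2 in intracellular vesicles, both mainly in manganese uptake, and Smf3 moves iron out of the vacuole. Zrt1 and Zrt2 are the high-affinity and low-affinity zinc importers. Ctr1 is the high-affinity copper importer, which depends on the factor Mac1, as do other genes, among them the copper permease gene CTR3 and the reductase gene FRE1.

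Values are array intensities on a linear scale as deposited, given as mean ± SD. Differences are log2 values ± standard error from limma, fitted to all 13 arrays, with p adjusted over all S. cerevisiae probe sets and a threshold of 0.05. The strains are compared on the values as deposited. The median of all genes moved with dose by 0.13 between 25 and 15 mM in TMB3400, by 0.13 between 25 and 15 mM in FT30-3 and by 0.17 between 36 and 15 mM. Dose differences are therefore given after each array's median was set to a common value. Probe sets for another yeast, Schizosaccharomyces pombe, have no target here, and their 95th percentile on each array, 31.2 to 39.0, served as the background. The lowest value of any member other than FET4 was 16.4 times the background. One array stood apart from its group, FT30-3 at 36 mM replicate 1, where 216 of 5449 genes lay more than 1 log2 unit below its replicates. The replicates are called biological by the series' design text. Whether groups overlapped is given as a description only. With so few arrays in each group separation is not rare, and its share over all genes was not counted. Each call below was recomputed under 21 alternative settings, except for genes named only for their likeness to a member.

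FET4 had very little signal in FT30-3 and a clear one in TMB3400. At 15 mM its intensity was 101.2, 147.9 and 102.2 in the FT30-3 replicates, against 1911 and 1373 in TMB3400. At 25 mM it was 52.3 and 37.6 in FT30-3, against 1247, 1074 and 1537 in TMB3400. At 36 mM, where only FT30-3 was grown, it was 48.8, 119.5 and 53.5. The highest of the 8 FT30-3 arrays (147.9) lay far below the lowest of the 5 TMB3400 arrays (1074), so the strains did not overlap at any furfural level.

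**Figure D1:**
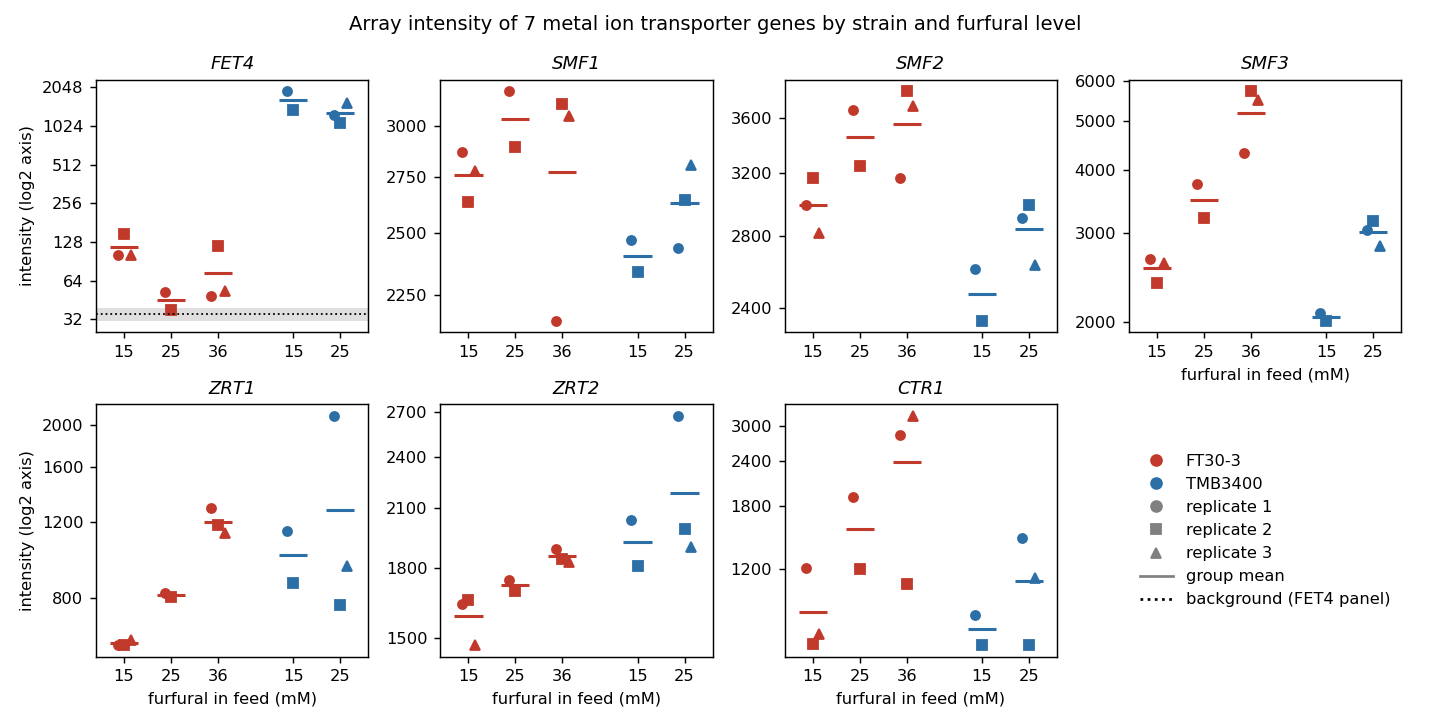
Intensity (log2 axis, scaled separately for each gene) of the 7 transporter genes on every array, by strain and furfural level in the feed; points are arrays, horizontal lines are group means, and the band in the FET4 panel spans the background of the 13 arrays with its mean dotted. FET4 lies between 37.6 and 147.9 in FT30-3 and between 1074 and 1911 in TMB3400, while the lowest value of the other 6 genes is 623.0, for ZRT1.

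At 15 mM FET4 was 13.9-fold lower in FT30-3, a log2 difference of -3.80 ± 0.35 (adjusted p = 0.0014). At 25 mM it was 28.1-fold lower, a log2 difference of -4.81 ± 0.35 (adjusted p = 1.2e-05). Among 5449 genes this was rank 2 from the lowest at 15 mM and rank 1 at 25 mM. Averaged over both levels the difference was -4.31 ± 0.25 (adjusted p = 2.99e-06), also rank 1. All 3 differences passed in 21 of 21 alternatives, the widest spread of the values being -5.04 to -4.41 at 25 mM. FET4 in FT30-3 lay 1.17 to 4.32 times above the background, and at 25 mM no more than 1.59 times above it, so the folds are less certain there than the direction. The difference between both strain gaps, the interaction of strain and dose, was -1.01 ± 0.49 for FET4, with an unadjusted p of 0.0646 and an adjusted p of 1, and its 95% interval ran from -2.09 to 0.07.

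FET4 was the only member called between the strains at either level. At 15 mM 0 of the 7 members passed as higher in FT30-3, with 2.09% of all genes called, and 1 passed as lower, FET4, with 0.202% called. At 25 mM the counts were 0 higher, with 4.37% of all genes called, and 1 lower, again FET4, with 1.84% called. Averaged over both levels, 1 member was higher, SMF2, with 7.16% called, and 1 lower, FET4, with 3.6% called. The median log2 difference of the 7 members was 0.14 at 15 mM, 0.21 at 25 mM and 0.20 on average, beside -0.02, -0.01 and -0.01 for all genes. For the interaction limma called 0 of the 7 members in either direction, with 0.422% of all genes called as higher and 0.257% as lower, and 0 members had an unadjusted p under 0.05, beside 188 of 5449 genes (3.45%).

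**Figure D2:**
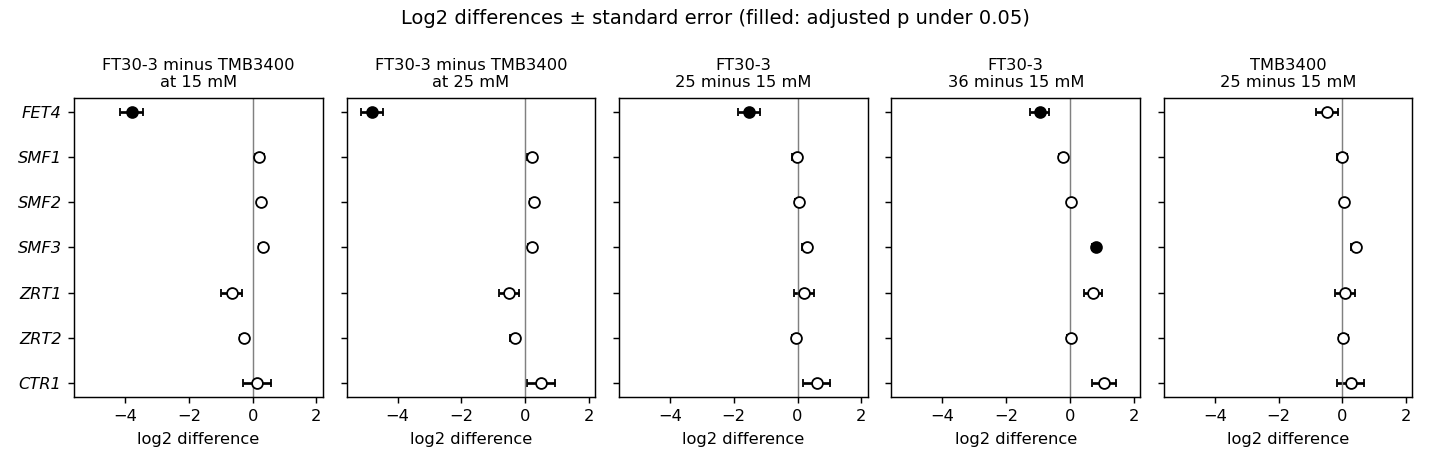
Log2 difference (horizontal axis) ± standard error of the 7 genes (rows) in 5 comparisons; filled points passed at an adjusted p under 0.05 and open points did not. FET4 lies at -3.80 and -4.81 between the strains, and the other strain differences lie between -0.66 and 0.50.

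FET4 also varied with dose within FT30-3, where all its values were dim. Its mean intensity was 117.1 ± 26.6 at 15 mM, 45.0 ± 10.4 at 25 mM and 73.9 ± 39.6 at 36 mM. Its values at 25 mM all lay below those at 15 mM, while those at 36 mM overlapped the 15 mM values through replicate 2 (119.5) and the 25 mM values through replicate 1 (48.8). After centring, FET4 fell by 1.52 on the log2 scale at 25 mM relative to 15 mM (SE 0.34, adjusted p = 0.0473). At 36 mM relative to 15 mM it fell by 0.95 (SE 0.31, adjusted p = 0.0467). Between 36 and 25 mM the difference of 0.57 ± 0.34 did not pass (adjusted p = 0.364). In TMB3400 the 25 mM level was -0.49 ± 0.34 relative to 15 mM and did not pass (adjusted p = 0.759).

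Both falls of FET4 were near the threshold. The one at 25 mM passed in 7 of 21 alternatives (adjusted p = 0.00532 to 0.269), and the only single arrays whose removal kept it were FT30-3 at 36 mM replicates 1 and 2. The one at 36 mM passed in 5 of 21 (0.00382 to 0.205), and the only single array whose removal kept it was FT30-3 at 36 mM replicate 2, without which the difference was -1.35. Under weights that count noisy arrays less, the difference at 36 mM was -0.47 (adjusted p = 0.205). On the same centred scale the median of the S. pombe probe sets moved by -0.27 at 25 mM and by -0.24 at 36 mM relative to 15 mM in FT30-3, and its part in the FET4 values was not tested.

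The genes next to FET4 on chromosome XIII had much smaller strain differences, in both directions. Of the 5 annotated genes on each side, 7 of 10 had a probe set. On one side the only measured genes were YMR321C, SNO4 and ERR3. Their probe sets are of the type that can match several similar genes, so their signals may not come from this locus alone. ADH6, which lies directly beside FET4 and encodes an NADPH-dependent alcohol dehydrogenase, had an intensity of 9373, 8409 and 8277 at 15 mM and 8022 and 8512 at 25 mM in FT30-3. In TMB3400 it was 10676 and 11202 at 15 mM, and 12545, 10529.6 and 11987 at 25 mM. ADH6 was lower in FT30-3, with a difference of -0.42 ± 0.08 on average over both levels (adjusted p = 0.00615, passing in 21 of 21 alternatives), beside -4.31 for FET4. SNO4, of a family of small stress-related proteins, was higher by 0.83 ± 0.21 (adjusted p = 0.0265, 16 of 21).

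The other neighbours did not pass on average over both levels. The values were 0.85 ± 0.31 for YMR317W (adjusted p = 0.113), which was above the background on 1 of 3 TMB3400 arrays at 25 mM, 0.36 ± 0.22 for the enolase-related gene ERR3, 0.17 ± 0.11 for DIA1 and 0.06 ± 0.15 for YMR321C. YMR315W-A was at or below the background on every array of 4 of the 5 groups and is given no fold. Among the 7 neighbours 0 passed at 15 mM, where 2 had an unadjusted p under 0.05 in limma, beside 11.8% of all genes. At 25 mM 1 passed as lower, ADH6, beside 1.84% of all genes.

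**Figure D3:**
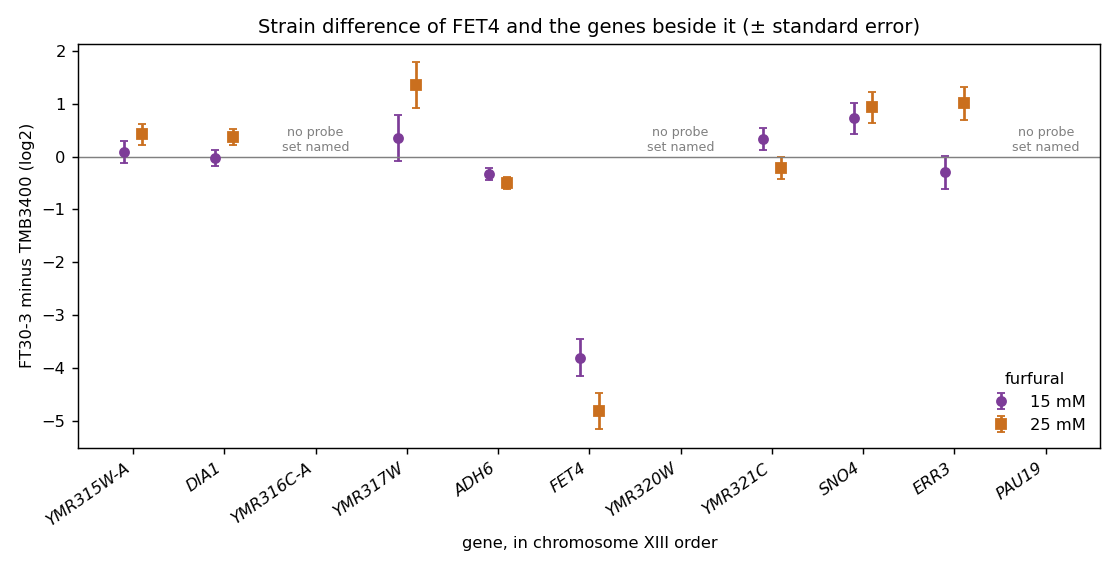
Log2 difference of FT30-3 minus TMB3400 ± standard error (vertical axis) for FET4 and the 5 genes on each side of it, in chromosome XIII order; circles are 15 mM and squares 25 mM, and 3 genes had no probe set of their name. FET4 lies at -3.80 and -4.81, and the measured neighbours lie between -0.50 and 1.35. The probe sets of YMR321C, SNO4 and ERR3 may match similar genes elsewhere.

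Genes for known or possible regulators of FET4 had small strain differences. Of 8 genes (AFT1, AFT2, ZAP1, ROX1, HAP1, MOT3, TUP1 and CYC8), 0 passed in limma at 15 mM and 0 at 25 mM. An unadjusted limma p under 0.05 was found for 2 and 1 of them, beside 11.8% and 18.1% of all genes. Averaged over both levels, AFT2, a paralogue of the iron factor gene AFT1, was higher by 0.53 ± 0.13 (adjusted p = 0.0226, passing in 16 of 21 alternatives). AFT2 lies on chromosome XVI, where the median difference of the genes other than CTR1 was 0.45, beside -0.03 on the other chromosomes. The values of the others ran from -0.24 for HAP1, a heme-responsive factor, to 0.35 for the hypoxic repressor ROX1, which also lies on chromosome XVI. AFT1 was at -0.04 ± 0.15 and ZAP1 at -0.02 ± 0.13.

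Hypoxic genes of the kind that Rox1 represses had no shared strain difference. Of 14 measured, 0 passed at 15 mM and 0 at 25 mM in limma. At each level 2 had an unadjusted limma p under 0.05, beside 11.8% and 18.1% of all genes. On average over both levels, HEM13, a heme synthesis enzyme gene, was lower, at -0.64 ± 0.17 (adjusted p = 0.0382, 13 of 21 alternatives). The sterol uptake factor gene SUT1 was lower, at -0.51 ± 0.15 (adjusted p = 0.0482, 11 of 21). The median of the 14 was 0.01, beside -0.01 for all genes. The cell wall gene DAN1 was at 1.39 ± 0.85 (adjusted p = 0.355), with 57.4 to 1934 in TMB3400 at 25 mM. With dose in FT30-3, 36 against 15 mM, 0 of the 14 rose and 7 fell, beside 11% and 11.2% of all genes. Those with the smallest p were SUT1 (-0.999 ± 0.174), the cytochrome gene CYC7 (-0.80 ± 0.17), the translation factor gene ANB1 (-0.53 ± 0.12) and the desaturase gene OLE1 (-0.33 ± 0.07). On the values as deposited 2 of the 14 fell, beside 258 of 5449 genes. For 25 against 15 mM in FT30-3, 1 of the 14 fell, UPC2 (-0.58), beside 0.918% of all genes. For 36 against 25 mM, 1 of the 14 fell, SUT1 (-0.85), beside 3.73%. Each of these counts was 0 to 1 in the alternatives.

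The genes whose values were most like those of FET4 over the 13 arrays were ENV11 (Pearson r = 0.951), the histidine synthesis gene HIS3 (0.946), the flocculin gene FLO11 (0.927), HMF1 (0.913) and the meiotic gene MSH5 (0.904). These r are a description over 13 arrays that share the strain gap. Within the 8 FT30-3 arrays they were 0.57, 0.49, 0.26, 0.65 and -0.15 in the same order. All 5 genes were lower in FT30-3 without overlap, which a choice by likeness to FET4 over both strains favours, so no test of that gap is given. HIS3 lay between 2842 and 3425 in FT30-3, against 4647 to 5874 in TMB3400 (-0.72 ± 0.07). FLO11 lay between 120.4 and 482.0 in FT30-3, against 1217 to 7012 in TMB3400 (-4.14 ± 0.41), the only one of the 5 with a gap near that of FET4.

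SMF1, the cell-surface manganese transporter gene, passed in no comparison. At 15 mM its intensity was 2871, 2635 and 2777 in FT30-3, against 2469 and 2341 in TMB3400. At 25 mM it was 3184 and 2893 in FT30-3, against 2439, 2647 and 2806 in TMB3400. The FT30-3 values lay above those of TMB3400 at both levels, by 0.20 ± 0.15 (adjusted p = 0.695) and 0.21 ± 0.15 (adjusted p = 0.518), which did not pass. The 95% intervals ran from -0.12 to 0.52 and from -0.11 to 0.53. On average the difference was 0.20 ± 0.10 (adjusted p = 0.258), which passed in 1 of 21 alternatives, without FT30-3 at 36 mM replicate 1 (adjusted p = 0.0384).

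At 36 mM SMF1 was 2153, 3115 and 3049.8 in FT30-3, with the low value on the array that stood apart. The difference of 36 from 15 mM was -0.21 ± 0.13 (adjusted p = 0.27). SMF1 was most like YLR001C, LHS1 and NUS1, with r of 0.935, 0.928 and 0.925. These r are descriptions over arrays of 5 groups.

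SMF2, the vesicular manganese transporter gene, was modestly higher in FT30-3. At 15 mM it was 2991, 3169 and 2816 in FT30-3, against 2607 and 2334 in TMB3400. At 25 mM it was 3663 and 3246 in FT30-3, against 2908, 2987 and 2628 in TMB3400. As a description, the strains did not overlap at either level. The difference was 0.28 ± 0.11 at each level (adjusted p = 0.34 and 0.202), and on average 0.28 ± 0.08, which passed (adjusted p = 0.0474).

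That average was near the threshold as well. It passed in 7 of 21 alternatives (adjusted p = 0.0156 to 0.179), and the only single array whose removal kept it was FT30-3 at 36 mM replicate 1. With dose SMF2 did not pass. In FT30-3 at 36 mM it was 3165, 3812 and 3692, and relative to 15 mM the difference was 0.05 ± 0.10. SMF2 was most like PTM1, YDR338C and ERJ5 (r = 0.937, 0.922 and 0.921).

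Genes that handle manganese or control the turnover of the Smf proteins passed in small numbers. Of 11 measured, 1 was higher and 0 lower in FT30-3 at 15 mM, beside 2.09% and 0.202% of all genes. At 25 mM 0 passed in limma, and 2 had an unadjusted p under 0.05, beside 18.1% of all genes. On average over both levels TRE1, which encodes an adaptor in Smf1 degradation, was higher by 0.59 ± 0.11 (adjusted p = 0.00671, 21 of 21 alternatives) and lies on chromosome XVI. The mitochondrial carrier gene MTM1 was higher by 0.25 ± 0.07 (adjusted p = 0.0343, 10 of 21). With dose in FT30-3, 36 against 15 mM, 1 rose and 2 fell, beside 11% and 11.2% of all genes. On the values as deposited 3 rose and 1 fell, beside 1494 and 258 of 5449 genes. PHO84, a phosphate transporter that also carries manganese, fell by 2.47 on the log2 scale (SE 0.37, adjusted p = 0.000999, 21 of 21). CCC1, a vacuolar iron and manganese importer, fell by 0.33 (adjusted p = 0.0207, 16 of 21), and the Golgi manganese gene ATX2 rose by 0.74 ± 0.24 (adjusted p = 0.0441, 9 of 21).

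SMF3, which moves iron out of the vacuole, rose with furfural in FT30-3. Its intensity there was 2666, 2382 and 2609.6 at 15 mM, 3759 and 3218 at 25 mM, and 4324, 5731 and 5506 at 36 mM. The 3 levels did not overlap and were ordered by dose. At 36 mM relative to 15 mM SMF3 rose by 0.81 ± 0.12 (adjusted p = 0.000827), a 1.76-fold change that passed in 21 of 21 alternatives with values of 0.74 to 1.01. Relative to 25 mM it rose by 0.53 ± 0.13 (adjusted p = 0.0371).

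The last step was less firm. It passed in 9 of 21 alternatives (adjusted p = 0.00456 to 0.27), and the only single arrays whose removal kept it were FT30-3 at 36 mM replicate 1 and TMB3400 at 25 mM replicates 2 and 3. The difference of 25 from 15 mM in FT30-3, 0.29 ± 0.13, did not pass (adjusted p = 0.433). In TMB3400 SMF3 was 2081 and 2009 at 15 mM and 3036, 3165 and 2832 at 25 mM, again without overlap. That difference of 0.42 ± 0.13 did not pass (adjusted p = 0.234), but it passed on the values as deposited (0.56, adjusted p = 0.0451), with array weights (0.36, adjusted p = 0.0356) and without FT30-3 at 36 mM replicate 1 (adjusted p = 0.0455).

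Between the strains SMF3 had a difference of 0.32 ± 0.13 at 15 mM and 0.21 ± 0.13 at 25 mM, without overlap, and neither passed (adjusted p = 0.328 and 0.442). The value at 15 mM passed with array weights (adjusted p = 0.0335). On average the difference was 0.26 ± 0.09 (adjusted p = 0.0925). It passed when only the groups compared were fitted (adjusted p = 0.0332), with array weights (0.014) and without FT30-3 at 36 mM replicate 1 (0.0183).

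With dose, few members passed. For 25 against 15 mM in TMB3400, limma called 0 of 7 in either direction, with 0.807% of all genes called as higher and 0.826% as lower, and 1 member, SMF3, had an unadjusted p under 0.05, beside 9.47% of all genes. For 25 against 15 mM in FT30-3, 0 were higher, with 1.23% of all genes called, and 1 was lower, FET4, with 0.918% called. For 36 against 15 mM, 1 was higher, SMF3, with 11% called, and 1 lower, FET4, with 11.2% called. On the values as deposited SMF3, ZRT1 and CTR1 passed there, 3 higher and 0 lower. For 36 against 25 mM, 1 was higher, SMF3, with 3.4% called, and 0 were lower, with 3.73% called. The dose comparisons in FT30-3 share arrays. Over all genes, 36 against 15 mM gave 601 higher and 612 lower, and 1494 and 258 on the values as deposited. The same scaling gave 167 higher and 37 lower at 25 mM in FT30-3, against 67 and 50 after centring, and 120 and 36 in TMB3400, against 44 and 45.

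Most genes of a list for high-affinity iron uptake and related iron functions rose in FT30-3 at 36 mM beside SMF3. The list held FET3, FTR1, FRE2, FRE3, ARN1, ARN2, SIT1, ENB1, FIT1, FIT2, FIT3, TIS11, HMX1, FET5 and FTH1. Not all of these act in uptake itself, TIS11 being an example. Of 15 measured, 11 were higher and 1 lower relative to 15 mM, beside 11% and 11.2% of all genes, and the list's median was 0.64 beside -0.03 for all genes. The genes with the smallest p were TIS11, a factor in the decay of iron-related mRNAs (3.24 ± 0.27, adjusted p = 2.54e-05), and the siderophore transporter genes ARN1 (2.98 ± 0.20, adjusted p = 5.91e-06), ENB1 (2.77 ± 0.20, adjusted p = 8.58e-06) and ARN2 (2.39 ± 0.16, adjusted p = 4.42e-06). ARN1 averaged 1117 ± 32.8 at 15 mM, 3511 ± 1453 at 25 mM and 10130.2 ± 558 at 36 mM in FT30-3. All 4 passed in 21 of 21 alternatives. The list ran from -0.74 to 3.24, a range too wide to liken the SMF3 step of 0.81 to these genes.

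The genes of the high-affinity iron importer itself were not among those that rose. These genes were picked out after their values were seen. FTR1, the permease, was the gene of the list that fell, by 0.74 (SE 0.11, adjusted p = 0.000852, 21 of 21), and FET3, the multicopper oxidase, was at -0.07 ± 0.17 (adjusted p = 0.777). AFT1, the iron factor gene, rose by 0.58 ± 0.18 (adjusted p = 0.0441, 9 of 21), with its highest value, 2554, on the array that stood apart and 1569 and 1449 on its replicates. MOT3, a repressor gene of the FET4 regulator list, fell by 1.07 (SE 0.23, adjusted p = 0.00767, 21 of 21).

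**Figure D4:**
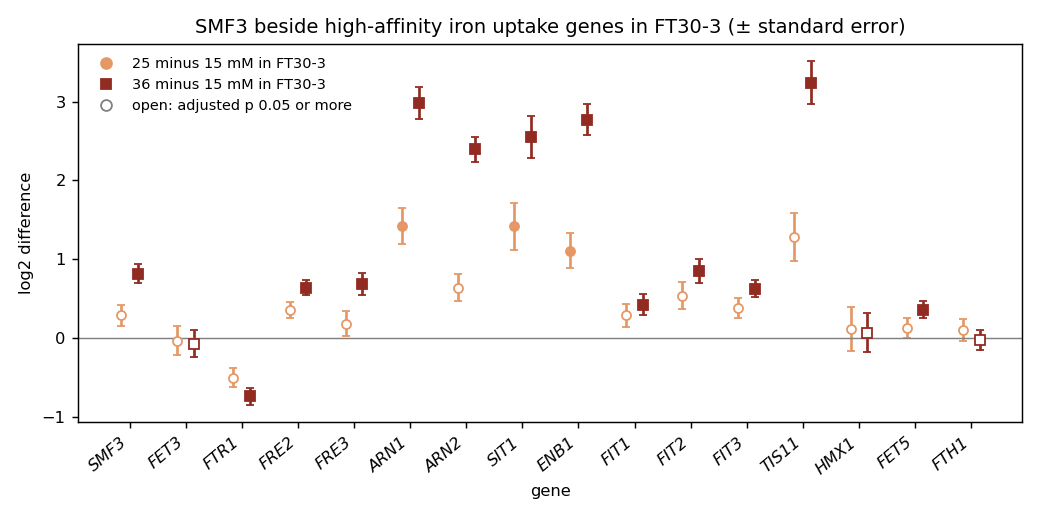
Log2 difference ± standard error (vertical axis) of SMF3 and 15 genes of high-affinity iron uptake or related iron functions in FT30-3. Circles are 25 minus 15 mM and squares 36 minus 15 mM, and open symbols have an adjusted p of 0.05 or more. SMF3 lies at 0.29 and 0.81, the highest gene at 36 mM is TIS11 at 3.24, and FTR1 lies at -0.74.

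At 25 mM the iron genes passed in smaller number. In FT30-3, 3 of 15 were higher than at 15 mM, beside 1.23% of all genes. They were ARN1 (1.42 ± 0.23), ENB1 (1.11 ± 0.22) and SIT1 (1.42 ± 0.30). In TMB3400 also 3 of 15 were higher, beside 0.807% of all genes, namely FIT3 (0.85 ± 0.12), ARN1 (1.34 ± 0.23) and ENB1 (1.18 ± 0.22). At 36 relative to 25 mM 5 were higher, beside 3.4% of all genes. Those with the smallest p were ARN2 (1.75 ± 0.18), ENB1 (1.66 ± 0.22), ARN1 (1.56 ± 0.23) and TIS11 (1.96 ± 0.30). On the values as deposited the counts at 25 mM were 8 in each strain, beside 167 of 5449 genes in FT30-3 and 120 in TMB3400. Between the strains, FIT3, a cell wall mannoprotein of siderophore retention, was higher in FT30-3 at 15 mM (0.51 ± 0.12, adjusted p = 0.0499, 5 of 21 alternatives). FIT1, of the same group, was higher at 25 mM (0.92 ± 0.14, adjusted p = 0.00353, 20 of 21), with 503.2 ± 45.2 in FT30-3 (n = 2) and 266.9 ± 44.0 in TMB3400 (n = 3). On average over both levels 3 of 15 were higher, FIT1, FIT3 and ARN2, beside 7.16% of all genes. That count was 1 to 4 in the alternatives.

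SMF3 was most like RSB1, a gene of sphingoid base export (r = 0.971), YPR015C (0.958) and CHO2, a phospholipid methyltransferase gene (0.951). RSB1 rose by 0.89 ± 0.13 at 36 relative to 15 mM, YPR015C by 1.25 ± 0.13 and CHO2 by 0.37 ± 0.09. A choice by likeness to SMF3, which rose there, favours such rises, so no test of them is given. Across the 13 arrays SMF3 had r = 0.928 with ARN2 and -0.871 with FTR1. These are descriptions over arrays that share furfural levels.

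ZRT1, the high-affinity zinc importer gene, had values ordered by dose in FT30-3, but no difference passed. Its intensity in FT30-3 was 624.5, 623.0 and 640.0 at 15 mM, 821.2 and 802.8 at 25 mM, and 1289.7, 1181 and 1128 at 36 mM. In TMB3400 it was 1144 and 866.5 at 15 mM, and 2102, 773.2 and 946.2 at 25 mM. The FT30-3 replicates lay close together and the 3 levels did not overlap, while TMB3400 at 25 mM replicate 1 lay far above its replicates. That array was 1.30 above the mean of the other 2 on the log2 scale for ZRT1.

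The spread of TMB3400 entered every ZRT1 test, since all groups share 1 estimate. The difference between the strains was -0.66 ± 0.32 at 15 mM and -0.51 ± 0.32 at 25 mM, and neither passed (adjusted p = 0.453 and 0.457). At 36 relative to 15 mM in FT30-3 it was 0.73 ± 0.28 (adjusted p = 0.0846). Without TMB3400 at 25 mM replicate 1 that same step passed (adjusted p = 0.0017), and it also passed when only the groups compared were fitted (0.00469), with array weights (0.00837) and on the values as deposited (0.93, adjusted p = 0.0286). The step between 36 and 25 mM, 0.52 ± 0.32 (adjusted p = 0.36), passed in 1 alternative, without the same TMB3400 array (0.0368). Without it the strain difference also passed at 15 mM (adjusted p = 0.0418) and on average (-0.37, adjusted p = 0.0448, against -0.58 ± 0.22 and 0.133 with it). At 25 mM, though, the difference without that array was -0.07 (adjusted p = 0.883), so the printed -0.51 rested largely on it. The average passed without TMB3400 at 25 mM replicate 2 as well (-0.73, adjusted p = 0.0418).

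ZRT2, the low-affinity zinc importer gene, had lower values on every FT30-3 array than on any TMB3400 array at the same level. At 15 mM it was 1637, 1657 and 1472 in FT30-3, against 2039.9 and 1810.4 in TMB3400. At 25 mM it was 1746 and 1697 in FT30-3, against 2669.9, 1989 and 1898 in TMB3400. The differences of -0.28 ± 0.14 and -0.33 ± 0.14 did not pass (adjusted p = 0.464 and 0.22). On average the difference was -0.30 ± 0.10 (adjusted p = 0.0702), which passed in 2 of 21 alternatives, among them without TMB3400 at 25 mM replicate 3 (-0.35, adjusted p = 0.0494).

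With dose no ZRT2 difference passed. At 36 mM it was 1889, 1844 and 1828 in FT30-3, and the centred difference from 15 mM was 0.03 ± 0.12, with a 95% interval of -0.24 to 0.29. ZRT1 and ZRT2 had r = 0.754 with each other over the 13 arrays, with the same TMB3400 array highest in both. The genes most like ZRT1 were BUD17, DCD1 and PKR1 (r = 0.915, 0.858 and 0.857), and those most like ZRT2 were TAT2, a tryptophan permease gene, EFM5 and ARO4, an enzyme gene of aromatic amino acid synthesis (0.882, 0.878 and 0.876).

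Few of the wider zinc genes passed between the strains. Of 15 measured, 0 passed between the strains in limma at 15 or 25 mM. An unadjusted limma p under 0.05 was found for 1 and 0, beside 11.8% and 18.1% of all genes. ZAP1, the zinc factor gene, differed by -0.02 ± 0.13 on average. ADH4 was higher in FT30-3 on average (0.37 ± 0.10, adjusted p = 0.0333, 14 of 21 alternatives). At 36 relative to 15 mM in FT30-3, 0 rose and 4 fell, beside 11% and 11.2% of all genes. On the values as deposited 1 rose and 2 fell, beside 1494 and 258 of 5449 genes. The 4 that fell were the membrane protein genes IZH1 (-0.89 ± 0.13, adjusted p = 0.00099, 21 of 21), IZH3 (-0.51 ± 0.11, 21 of 21) and IZH4 (-0.67 ± 0.17, 18 of 21), and ADH4 (-0.38 ± 0.12, adjusted p = 0.0478, 9 of 21). ZAP1 was at 0.07 ± 0.16 there. For 36 against 25 mM, 1 of the 15 fell, IZH1 (-0.60), beside 3.73% of all genes. That count was 0 to 1 in the alternatives.

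CTR1, the high-affinity copper importer gene, had the largest standard errors of the 7 genes. Its intensity in FT30-3 was 1205, 742.7 and 790.5 at 15 mM, 1903 and 1199.8 at 25 mM, and 2833, 1091 and 3204 at 36 mM. In TMB3400 it was 892.8 and 735.4 at 15 mM, and 1463, 736.6 and 1129.9 at 25 mM. The groups overlapped in every comparison of strain or dose. FT30-3 at 36 mM replicate 2 lay 1.47 below its replicates on the log2 scale.

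No CTR1 difference passed. Between the strains it was 0.14 ± 0.44 at 15 mM (adjusted p = 0.93, 95% interval -0.83 to 1.10) and 0.50 ± 0.44 at 25 mM (adjusted p = 0.617, -0.47 to 1.47). CTR1 lies on chromosome XVI, where the median of the other 423 genes was 0.44 at 15 mM and 0.44 at 25 mM. Of these genes 8.51% lay below CTR1 at 15 mM and 61.5% lay below it at 25 mM, so it lay near the middle of that chromosome's genes at 25 mM and towards their lower end at 15 mM. At 36 relative to 15 mM CTR1 had a difference of 1.07 ± 0.39 (adjusted p = 0.07). It passed without FT30-3 at 36 mM replicate 2 (1.56, adjusted p = 0.00704), on the values as deposited (1.27, adjusted p = 0.0305) and in 1 further alternative.

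Some copper genes varied between replicates along with CTR1, and others went other ways. Over the 13 arrays their r with CTR1 ran from -0.771 for CUP1-1 through -0.519 for FRE7 and 0.047 for MAC1 to 0.877 for FRE1. On FT30-3 at 36 mM replicate 2 the median of the 13 copper genes was -0.09 relative to its replicates, with 6 above 0. FRE1, the reductase gene, was the gene most like CTR1 of all those measured (r = 0.877), followed by MPE1 (0.836) and ATG40 (0.833). FRE1 in FT30-3 was 712.3, 475.4 and 471.6 at 15 mM, 934.9 and 1074 at 25 mM, and 1545, 1199 and 1989 at 36 mM. In TMB3400 it was 726.0 and 556.5 at 15 mM, and 1152, 523.2 and 797.6 at 25 mM. At 36 mM FRE1 was lowest on replicate 2, as CTR1 was, and in TMB3400 at 25 mM both were highest on replicate 1 and lowest on replicate 2.

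CTR3 and CUP1-1 were picked out after their values were seen. CTR3, the other copper permease gene, was 6466, 2929 and 8452 in FT30-3 at 36 mM, with the low value again on replicate 2. At 15 mM in FT30-3 it was 6045 on replicate 1 and 1738 and 1646 on the others, highest on the same array as CTR1. The metallothionein gene CUP1-1, which is induced by copper through another factor, was 5019, 14894 and 9585 in FT30-3 at 36 mM, highest where CTR1 was lowest. CTR1 had r = 0.557 with CTR3, and 0.874 within the 8 FT30-3 arrays, and r = -0.771 with CUP1-1. The near-identical gene CUP1-2 has no probe set of its name, and the CUP1-1 signal may hold both. On FT30-3 at 36 mM replicate 2 FET4 was 1.20 above its replicates, CTR1 1.47 below and CTR3 1.34 below, and what sets that array apart was not tested.

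**Figure D5:**
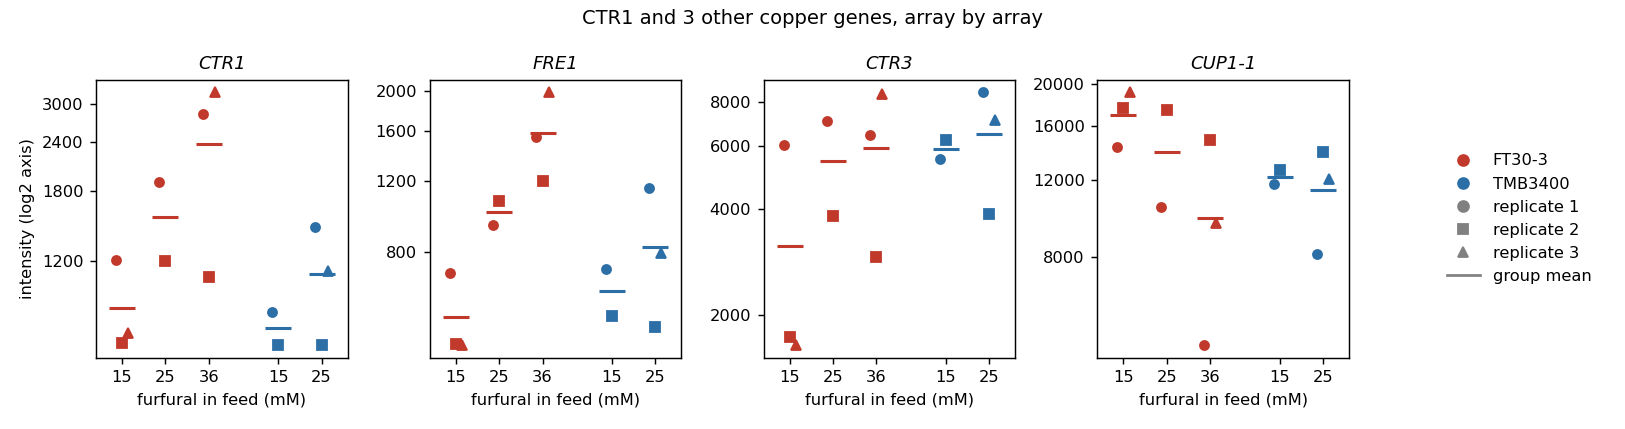
Intensity (log2 axis, scaled separately for each gene) of CTR1, FRE1, CTR3 and CUP1-1 on every array, by strain and furfural level in the feed; points are arrays and horizontal lines are group means. At 36 mM in FT30-3, replicate 2 (squares) is the lowest of 3 for CTR1, FRE1 and CTR3 and the highest for CUP1-1.

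The copper genes differed in direction among themselves. Between the strains 0 of 13 measured passed in limma at 15 or 25 mM. An unadjusted limma p under 0.05 was found for 2 and 3, beside 11.8% and 18.1% of all genes. On average the copper-sensing factor gene CUP2 (0.35 ± 0.08, adjusted p = 0.0172, 18 of 21 alternatives) and the copper pump gene CCC2 (0.44 ± 0.12, adjusted p = 0.0375, 12 of 21) were higher, and the reductase family gene FRE7 (-0.88 ± 0.25, adjusted p = 0.047, 11 of 21) was lower in FT30-3. At 36 relative to 15 mM in FT30-3, 3 rose and 4 fell, beside 11% and 11.2% of all genes, and the median was -0.06 beside -0.03 for all genes. On the values as deposited 4 rose and 1 fell, beside 1494 and 258 of 5449 genes. FRE1 rose by 1.31 ± 0.28 (adjusted p = 0.00695) and the copper chaperone gene CCS1 by 0.90 ± 0.17 (adjusted p = 0.00364), both in 21 of 21 alternatives. FRE7 fell by 2.32 (SE 0.31, adjusted p = 0.000545, 21 of 21), with 29.9 to 44.1 at 36 mM, where 1 of 3 arrays was above the background. The superoxide dismutase gene SOD1 fell by 0.26 (SE 0.06, adjusted p = 0.0131, 17 of 21).

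Set side by side, between the strains FET4, ZRT1 and ZRT2 had differences below 0 at both levels and SMF1, SMF2, SMF3 and CTR1 had differences above 0, and only FET4 passed at either level. Over the 13 arrays the r between FET4 and the others ran from -0.747 with SMF2 to 0.756 with ZRT2. As descriptions these r carry the strain gap of FET4 and the array differences named above.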

How the data were processed

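RNA from 13 chemostat cultures was hybridised to Affymetrix yeast arrays, per the labels. The deposited values are linear intensities per probe set, made by the authors with R 2.7.2 per the submitters' processing notes; their background correction and normalization are not known from the files, and the number of arrays limits precision. Gene names came from the platform annotation: 5498 probe sets name 1 S. cerevisiae gene (5449 genes, brightest probe set kept for counts). Intensities were taken as log2(intensity + 1). With limma 3.58.1 (R 4.3.3), a linear model with 1 mean per strain and furfural level was fitted over the 13 arrays (empirical Bayes, Benjamini-Hochberg over 5498 probe sets, threshold 0.05). The folds of dim genes are less certain, and the direction of any bias in them was not tested. The script was tested on simulated data.

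The members and all gene lists were chosen with earlier results of these data known. The text names all members, all measured neighbours of FET4, the genes most like each member (5 for FET4, 3 for the others, by Pearson r over 13 arrays), and up to 4 passing genes per list and comparison with the smallest p. AFT1, ZAP1, HAP1, ROX1, DAN1, FTR1, FET3, CTR3 and CUP1-1 are named where the rule did not choose them, after their values were seen. The alternatives were the other array scaling, quantile normalization, a pseudocount of 16, a filter on dim probe sets, only the groups compared, an intensity trend, array weights, the replicate number as a block, and leaving out each of the 13 arrays. No sequences are shown.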

Additional observations from a re-analysis of the deposited data

How the results depend on the processing

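Of 1176 recomputed member differences (56 values, 21 alternatives each), 1054 kept their direction and their side of the threshold, 56 lost it, 21 gained it and 45 changed sign, and none of those 45 was called either way. FET4 was called between the strains in all 21 alternatives at 15 mM, at 25 mM and for the mean of both. The count of members called at 15 mM became 2 with array weights and was 1 to 2 when 1 array was left out. At 25 mM it was 1 to 1 when 1 array was left out. For the mean of both levels it became 1 with the other scaling and was 1 to 4 when 1 array was left out. For 25 against 15 mM in TMB3400 it became 1 with the other scaling and 1 with array weights, and was 0 to 1 when 1 array was left out. For 25 against 15 mM in FT30-3 it became 0 with the other scaling, 0 with array weights and 0 with the replicate block, and was 0 to 1 when 1 array was left out. For 36 against 15 mM it became 3 with the other scaling, all higher, with FET4 lost and ZRT1 and CTR1 gained, and was 1 to 3 when 1 array was left out. For 36 against 25 mM it became 0 with only the groups compared and 0 with the replicate block, and was 0 to 1 when 1 array was left out. With the replicate block the other counts were 1 at 15 mM, 1 at 25 mM, 2 for the mean, 0 for the interaction, 0 for 25 against 15 mM in TMB3400 and 2 for 36 against 15 mM. The members called changed there for the mean, with SMF2 lost and ZRT2 gained. For 36 against 15 mM FET4 was lost and CTR1 gained. The labels give the replicate numbers no meaning beyond the group. Of 23 pairs of arrays with the same number, 10 had a correlation of their deviations of 0.1 or less, all 10 with an FT30-3 array at 15 mM. The 13 pairs among the other 4 groups had 0.187 to 0.587. The closest array of another group had the same number for 7 of 13 arrays. The numbers did not pair all groups alike and were not used as a pairing in the main fit. Whether arrays with the same number share a batch in the 4 groups other than FT30-3 at 15 mM was not tested. In all, 17 of the 56 member differences changed sign in at least 1 alternative. Among the member and neighbour values given above these were CTR1 between the strains at 15 mM (-0.081 to 0.28 when 1 array was left out), YMR321C for the mean (-0.12 to 0.23) and ZRT1 for 25 against 15 mM in TMB3400 (-0.36 to 0.35, and -0.13 with array weights). SMF2 and ZRT2 for 36 against 15 mM ranged over -0.0023 to 0.14 and -0.019 to 0.061 when 1 array was left out. CTR1 for 36 against 25 mM was -0.035 with array weights and 0.14 to 0.96 when 1 array was left out. Among other genes, ZAP1 (-0.080 to 0.051) and AFT1 (-0.082 to 0.010, and 0.023 with array weights) changed sign for the mean when 1 array was left out. For 36 against 15 mM ZAP1 did too (-0.082 to 0.15, and -0.0011 with array weights), and FET3 was 0.13 with the other scaling. The causes were not tested. FET4 in FT30-3 lay near the background, which limits its folds and dose differences there.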
